A study of Mus musculus with 12 samples.

Results

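The genes described here carry out DNA replication and mitosis, and were followed in RAW 264.7 cells, a macrophage-like mouse line that divides in culture. The set is a list of 43 symbols, 26 of replication and 17 of mitosis, read from the probe sets annotated to those symbols. Of these, 40 were measured among the 19505 genes of the arrays, 24 of replication and 16 of mitosis, each with 1 probe set. Mcm7, Ccnd1 and Ccnb1 were not analysed here. The measured genes were ordered by role: origin licensing (8 genes), helicase activation (4), fork enzymes (5), nucleotide supply (4) and G1/S regulators (3) for replication, and mitotic cyclins with Cdk1 (3), kinases with their partners (5), kinetochore and spindle checkpoint proteins (4), and spindle motors with chromosome proteins (4) for mitosis.

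RNA was hybridised to 12 Affymetrix arrays, 3 for each of 4 groups: inulin with TsSP, TsSP, inulin, and LPS alone. All 4 groups received lipopolysaccharide (LPS, a bacterial wall component that activates macrophages) at 500 ng/mL and were kept for 6 h at 37 °C and 5% CO2, and no array without LPS was used. Inulin, a plant fructan used as dietary fibre, was given at 500 µg/mL, and TsSP at 50 µg/mL. The abbreviation TsSP is not spelled out in the labels, and the series' design text speaks of helminth products. RAW 264.7 is a single transformed line. The labels do not say whether the 3 arrays of each group are separate cultures, and the p-values cover only the spread among the arrays at hand, which may be technical.

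Replication and mitosis are served by separate waves of transcription. In late G1, E2F factors are released from RB and switch on the genes that license origins, unwind DNA and supply nucleotides, and in G2 a later wave makes the cyclins, kinases and kinetochore proteins of mitosis. The promoters of the later wave are bound by the MuvB complex at a short element, the CHR (cell cycle genes homology region), often beside CCAAT boxes that bind NF-Y, while E2F sites mark many promoters of the earlier wave. Activated macrophages are known to slow or leave the cell cycle. Because the RNA came from whole cultures, fewer cells in a given phase and less RNA per cell cannot be told apart in any value below.

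The promoters of the genes that carry the results are given first, since E2F sites and the CHR are known marks of the 2 waves. RefSeq windows of 250 bases before to 50 after the annotated start (GRCm38.p6) were found for 32 of the 40 genes, 1 window each except for Fen1 with 2 and Lig1 with 3. Aurkb, Ccna2, Ccne2, Gins1, Gins2, Kif20a, Mcm4 and Pole are named only. The 160 bases before the start are printed 5′ to 3′ on the strand of the gene, with capitals marking matches on either strand to the E2F letters (TTTCCCGC, TTTGGCGC, TTTCGCGC or TTTGCCGC), the CHR letters (TTTGAA or TTTAAA) or the CCAAT box. Mcm6, Pola1 and Mcm10 are shown as replication genes that fell with TsSP, and Cdc6 and Rrm2 as replication genes that rose. Plk1 and Cenpf are shown as mitosis genes that rose, Cenpe as the mitosis gene that fell, and Cdk1 as one whose difference did not pass the test. In order, the stretches lie at chr1:128359706-128359865 (minus strand), chrX:93632156-93632315 (minus strand), chr2:5012792-5012951 (minus strand), chr11:98907991-98908150 (plus strand), chr12:24708094-24708253 (plus strand), chr7:122159275-122159434 (plus strand), chr1:189688087-189688246 (minus strand), chr3:135212403-135212562 (plus strand) and chr10:69352913-69353072 (minus strand).
Mcm6: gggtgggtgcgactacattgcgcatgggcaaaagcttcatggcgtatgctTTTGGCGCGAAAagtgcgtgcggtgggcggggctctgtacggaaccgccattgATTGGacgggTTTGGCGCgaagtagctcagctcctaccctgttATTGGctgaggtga
Pola1: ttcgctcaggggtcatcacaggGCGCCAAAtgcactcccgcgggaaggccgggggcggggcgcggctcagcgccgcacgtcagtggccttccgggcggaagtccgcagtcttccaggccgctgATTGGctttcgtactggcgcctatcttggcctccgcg
Mcm10: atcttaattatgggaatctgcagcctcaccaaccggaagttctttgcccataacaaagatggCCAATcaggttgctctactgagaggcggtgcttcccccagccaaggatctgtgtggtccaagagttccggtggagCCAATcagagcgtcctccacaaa
Cdc6: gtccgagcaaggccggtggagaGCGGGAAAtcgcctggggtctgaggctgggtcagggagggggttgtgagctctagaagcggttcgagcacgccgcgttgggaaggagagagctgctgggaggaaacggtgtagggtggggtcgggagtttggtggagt
Rrm2: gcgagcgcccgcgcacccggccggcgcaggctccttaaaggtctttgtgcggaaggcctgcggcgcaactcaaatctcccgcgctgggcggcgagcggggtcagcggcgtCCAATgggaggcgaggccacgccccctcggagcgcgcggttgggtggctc
Plk1: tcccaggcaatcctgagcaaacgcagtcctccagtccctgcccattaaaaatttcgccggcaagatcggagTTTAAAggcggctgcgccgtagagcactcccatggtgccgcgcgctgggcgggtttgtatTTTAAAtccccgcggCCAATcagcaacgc
Cenpf: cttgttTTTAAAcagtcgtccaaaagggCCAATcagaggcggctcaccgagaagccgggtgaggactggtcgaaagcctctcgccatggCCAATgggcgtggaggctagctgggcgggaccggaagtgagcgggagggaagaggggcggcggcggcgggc
Cenpe: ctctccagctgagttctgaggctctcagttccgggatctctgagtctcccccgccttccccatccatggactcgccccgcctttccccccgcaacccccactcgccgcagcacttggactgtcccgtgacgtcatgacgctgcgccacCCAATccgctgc
Cdk1: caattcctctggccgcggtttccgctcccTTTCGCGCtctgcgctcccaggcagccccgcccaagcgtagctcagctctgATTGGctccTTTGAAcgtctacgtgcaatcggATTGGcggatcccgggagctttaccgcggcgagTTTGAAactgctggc
In the Mcm6 stretch the first run in capitals is a pair of overlapping E2F matches, 1 on each strand. The Pola1 and Cdc6 stretches hold 1 E2F match each, on the opposite strand. Both stretches lie inside the annotated span of their gene, and the Cenpf stretch lies partly inside its own. The starts used for these genes are thus not the outermost ends of the spans. Of the mitosis genes shown, only the Cdk1 stretch holds E2F letters, and it holds 2 CHR matches as well. The Plk1 stretch holds 2 CHR matches and the Cenpf stretch 1. The Mcm10 stretch holds CCAAT boxes alone. The Cenpe and Rrm2 stretches hold a CCAAT box and no CHR letters, and their CHR letters lie after the start, at bases 15 to 20 in Cenpe and at bases 1 to 6 in Rrm2.

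Over the full windows, CHR letters stood in 12 of 13 windows of mitosis genes (92.3%), all except that of Bub1, and in 7 of 22 windows of replication genes (31.8%). All 32851 windows of the table held them at 27.6%. The CCAAT box stood in 12 of 13 mitosis windows (92.3%), all except that of Birc5, in 11 of 22 replication windows (50%) and in 37.4% of all windows. E2F letters stood in 1 of 13 mitosis windows (7.69%), in 8 of 22 replication windows (36.4%) and in 2.27% of all windows. The 8 replication genes with E2F letters were Orc1, Cdc6, Cdt1, Mcm3, Mcm5, Mcm6, Pola1 and Lig1. A letter match is a description of these windows and was tied to no measurement of binding. Of the 4 replication genes with a window that fell with TsSP against LPS alone, 3 hold E2F letters (Cdt1, Mcm6 and Pola1) and Mcm10 does not. Of the 4 that rose, Cdc6 holds them, and Rrm1, Rrm2 and Tk1 do not. Whether the letters go with the direction was not tested.

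**Figure D1:**
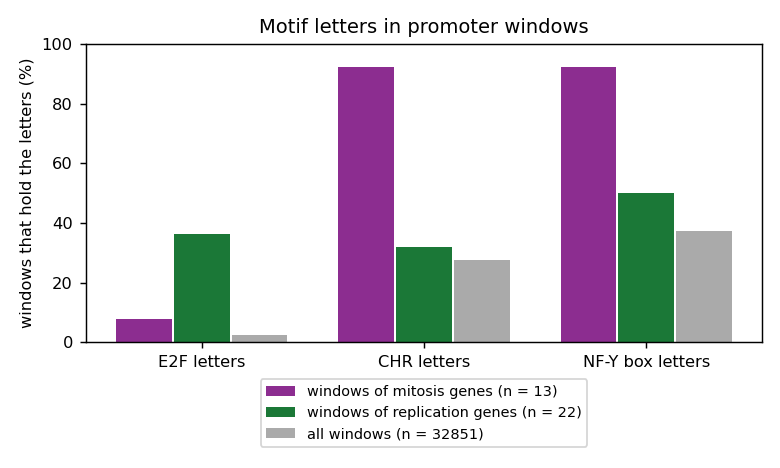
Share of RefSeq promoter windows (300 bases, %) that hold the letters of each motif on either strand, for 13 windows of mitosis genes, 22 of replication genes and all 32851. CHR letters stand in 92.3% of mitosis windows and 31.8% of replication windows, and E2F letters in 7.69% and 36.4%.

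Signals are the deposited values on a log2 scale, so a difference of 1 is a doubling. A gene was counted as above background on an array when it exceeded the brightest of 23 background probes. Of the 40 genes, 34 were above background on all arrays. Cdc6, Pole, E2f1 and Ccne2 were so in some groups only, with 1 of the 3 LPS arrays of each below background, and Lig1 and Tk1 were so in no group. A fold against a group with an array below background is given as at least that size, taking the background level in place of any dim signal under it. The arrays had medians of 5.16 to 5.30 over all probe sets and correlated within a group at r = 0.993 to 0.995. LPS replicate 1 had the lowest median (5.16) and the lowest background median (4.99), and counts without it are given beside the main ones. The median of the exon control probes was 11.22 to 11.36 on arrays that had TsSP, against 11.00 to 11.21 on the others, and its part in the results was not tested. Of 9 macrophage markers measured, 8 were above background in every group, including Adgre1, Csf1r and Spi1, with a summed log2 signal of 131.0 to 131.3, 131.2 to 132.0, 130.3 to 131.3 and 130.1 to 131.0 in the Inulin+TsSP, TsSP, inulin and LPS groups. None of 5 lymphocyte markers was above background, and Dcn was the 1 of 7 fibroblast and epithelial markers that was. With TsSP against LPS alone, Itgam and Lyz2 rose and Adgre1 fell among the macrophage markers, and Dcn fell by 0.68 on the log2 scale with Inulin+TsSP against inulin. Their part in the results was not tested.

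With TsSP against LPS alone, mitosis genes rose more often than they fell. Replication genes rose as often as they fell in the main test, a balance that depended on the scaling of the arrays. In this comparison, 7 of the 16 mitosis genes rose with TsSP and 1 fell, while of the 24 replication genes 4 rose and 4 fell (limma, Benjamini-Hochberg over all genes, adjusted p under 0.05). Over all 19505 genes 11.0% rose and 7.08% fell, and over the 8289 genes above background in all groups 20.9% rose and 13.4% fell. The mitosis share of risers, 7 of 16, stood above that background, and the replication share, 4 of 24, lay near it in both directions. The median difference was 0.35 for mitosis genes and -0.03 for replication genes, beside 0.10 for genes above background. No test of the contrast between the phases was made, since the genes were chosen with these results known. After quantile normalization the 11 rises and 5 falls of the whole set became 8 and 6, and without LPS replicate 1 they were 9 and 5. The rises lost after quantile normalization were those of Cdc6, Rrm1 and Tk1, all replication genes. Among replication genes, Rrm2 alone kept its rise under every setting and left-out array, while Cdt1, Mcm6, Mcm10 and Pola1 all kept their falls.

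With inulin present in both groups, 6 of 16 mitosis genes rose with TsSP and 2 fell, and of 24 replication genes 1 rose and 5 fell. Among all genes 8.66% rose and 7.99% fell, and among those above background 16.5% and 15.6%. The median difference was 0.25 for mitosis genes, -0.01 for replication genes and 0.03 for genes above background. Inulin and TsSP together, against LPS alone, gave 7 rises and 1 fall in mitosis and 3 rises and 5 falls in replication, where all genes gave 10.3% and 7.30%, and genes above background 19.7% and 14.2%. The whole set thus had 7 rises and 7 falls in the comparison with inulin, and 10 and 6 in that with LPS alone. Without LPS replicate 1 the last counts were 8 and 5. Single arrays moved the rises further. The 7 rises against inulin became 3 without Inulin+TsSP replicate 1, and 4 without any 1 of Inulin+TsSP replicates 2 and 3 and inulin replicates 2 and 3. The 10 rises against LPS alone became 5 without Inulin+TsSP replicate 3.

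**Figure D2:**
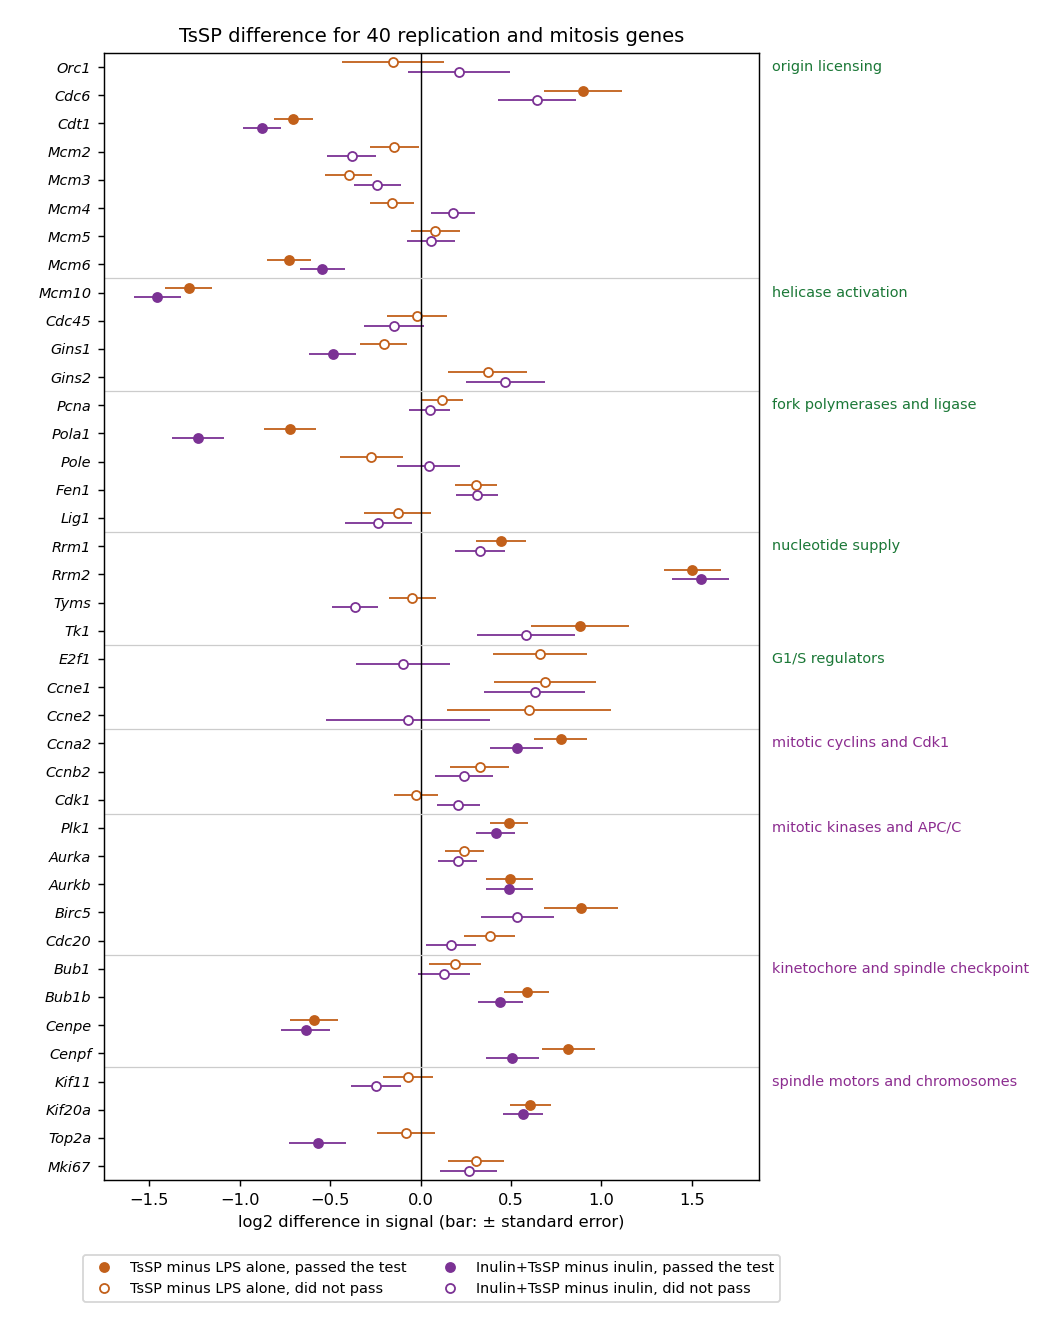
Log2 difference in signal (point) with its standard error (bar) for each of 40 genes, by role, for TsSP minus LPS alone (orange) and Inulin+TsSP minus inulin (purple), with filled points where the test was passed. Mcm10, Pola1, Cdt1, Mcm6 and Cenpe lie to the left in both, and Rrm2 lies farthest to the right at 1.50 and 1.55.

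Origin licensing loads the MCM helicase, a ring of Mcm2 to Mcm7, onto DNA in G1 through ORC, Cdc6 and Cdt1. Of the 8 genes measured, 1 rose and 2 fell with TsSP against LPS alone. In that comparison 11.0% of all genes rose and 7.08% fell (20.9% and 13.4% of those above background). Counts by role rest on few genes and are given as description. Cdt1, the loader that is destroyed once S phase begins, had log2 signals of 11.33, 11.32 and 11.26 with inulin and TsSP, 11.52, 11.42 and 11.38 with TsSP, 12.32, 12.10 and 12.13 with inulin, and 12.18, 12.10 and 12.15 with LPS alone. All 6 arrays with TsSP lay below all 6 without. Cdt1 fell by 1.63-fold (log2 difference -0.70 ± 0.11 SE, adjusted p = 0.000687) with TsSP against LPS alone and by 1.84-fold (log2 difference -0.88 ± 0.11 SE, adjusted p = 0.000145) with Inulin+TsSP against inulin. Mcm6, a subunit of the helicase ring, lay at 13.05, 12.77 and 12.82 (log2 signal) on the Inulin+TsSP arrays, 12.66, 12.77 and 12.78 on the TsSP arrays, 13.59, 13.41 and 13.28 on the inulin arrays and 13.39, 13.54 and 13.46 on the LPS arrays. The groups with and without TsSP did not overlap here either. The fall was 1.66-fold (log2 difference -0.73 ± 0.12 SE, adjusted p = 0.00149) for TsSP against LPS alone and 1.46-fold (log2 difference -0.54 ± 0.12 SE, adjusted p = 0.00972) for Inulin+TsSP against inulin.

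Cdc6, the ATPase that works with Cdt1 at origins, moved in the opposite direction. It gave log2 signals of 7.56, 7.50 and 7.39 with both agents, 7.25, 7.36 and 7.50 with TsSP, 6.80, 6.36 and 7.36 with inulin and 6.63, 6.21 and 6.58 with LPS alone. The 6 arrays with TsSP lay above the 3 LPS arrays, of which replicate 2 was below background, and the inulin arrays were widely spread, with replicate 3 at the level of the TsSP arrays. Cdc6 rose at least 1.83-fold (log2 difference 0.90 ± 0.22 SE, adjusted p = 0.0126) with TsSP and at least 1.98-fold (log2 difference 1.01 ± 0.22 SE, adjusted p = 0.00652) with Inulin+TsSP, each against LPS alone. The first of these calls was lost after quantile normalization (adjusted p = 0.0758) and without LPS replicate 2 (adjusted p = 0.0525). Against inulin, Inulin+TsSP gave a log2 difference of 0.64 ± 0.22 (SE, adjusted p = 0.0669), which did not pass.

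The other licensing genes did not pass in any comparison. Orc1, a subunit of the origin recognition complex, gave a log2 difference of -0.15 ± 0.28 (SE, adjusted p = 0.793) for TsSP against LPS alone. Mcm3 came nearest the threshold at -0.40 ± 0.13 (SE, adjusted p = 0.0571), with all 3 TsSP arrays below all 3 LPS arrays, and stood at -0.24 ± 0.13 for Inulin+TsSP against inulin. Mcm2 stood at -0.15 ± 0.14 and -0.38 ± 0.14, Mcm4 at -0.16 ± 0.12 and 0.18 ± 0.12, and Mcm5 at 0.08 ± 0.13 and 0.06 ± 0.13, in the same order of comparisons. Among the 5 measured subunits of the ring, Mcm6 alone passed the test, although Mcm2 and Mcm3 also had negative differences in both comparisons. Whether Mcm6 differs from the other subunits was not tested.

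Helicase activation turns the loaded ring into a moving fork with Cdc45 and the GINS complex, helped by Mcm10. Of 4 genes, 1 fell with TsSP against LPS alone and 2 fell with Inulin+TsSP against inulin. Among all genes 7.08% and 7.99% fell in these comparisons, and among those above background 13.4% and 15.6%. Mcm10 had log2 signals of 11.38, 11.19 and 11.06 with inulin and TsSP, 11.12, 11.25 and 11.16 with TsSP, 12.56, 12.65 and 12.80 with inulin, and 12.37, 12.39 and 12.63 with LPS alone. The lowest array without TsSP stood about 1 log2 unit above the highest with it. Mcm10 fell by 2.43-fold (log2 difference -1.28 ± 0.13 SE, adjusted p = 3.45e-05) with TsSP against LPS alone and by 2.75-fold (log2 difference -1.46 ± 0.13 SE, adjusted p = 1.36e-05) with Inulin+TsSP against inulin, the largest falls among the 40 genes. Gins1, a GINS subunit, lay at 9.39, 9.17 and 9.15 (log2 signal) on the Inulin+TsSP arrays, 9.56, 9.58 and 9.49 on the TsSP arrays, 9.96, 9.69 and 9.51 on the inulin arrays and 9.78, 9.71 and 9.75 on the LPS arrays. The 3 Inulin+TsSP arrays lay below the 9 others, while the TsSP arrays lay just below the LPS arrays. Gins1 fell by 1.40-fold (log2 difference -0.49 ± 0.13 SE, adjusted p = 0.0251) with Inulin+TsSP against inulin and by 1.43-fold (log2 difference -0.51 ± 0.13 SE, adjusted p = 0.0187) against LPS alone, and TsSP gave -0.20 ± 0.13 (SE, adjusted p = 0.359). Leaving out 1 array ended the call against inulin in 4 of 12 fits, at up to adjusted p = 0.102 without inulin replicate 1. Gins2, another GINS subunit, had positive differences of 0.37 ± 0.22 and 0.47 ± 0.22, and Cdc45 gave -0.02 ± 0.17 and -0.15 ± 0.17, none of which passed.

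At the fork, DNA polymerase alpha starts each fragment and polymerase epsilon extends the leading strand, on a sliding clamp made of Pcna. Pola1, the catalytic subunit of polymerase alpha, gave log2 signals of 7.35, 7.70 and 7.52 with both agents, 7.97, 8.04 and 7.98 with TsSP, 9.00, 8.57 and 8.70 with inulin and 8.84, 8.57 and 8.76 with LPS alone. The 4 groups fell into a low, a middle and a high level, with the Inulin+TsSP arrays below the TsSP arrays and both below all arrays without TsSP. Pola1 fell by 1.65-fold (log2 difference -0.72 ± 0.14 SE, adjusted p = 0.00392) with TsSP against LPS alone and by 2.35-fold (log2 difference -1.23 ± 0.14 SE, adjusted p = 0.000100) with Inulin+TsSP against inulin. Between Inulin+TsSP and TsSP the difference was -0.47 ± 0.14 (SE, adjusted p = 0.978), and the interaction was -0.51 ± 0.20 (SE, adjusted p = 0.858), so neither passed, at unadjusted p of 0.00640 and 0.0277.

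The remaining fork genes did not pass. Pcna was the brightest gene of the set, at a mean log2 signal of 15.61 ± 0.0463 with inulin and TsSP, 15.64 ± 0.0548 with TsSP, 15.56 ± 0.173 with inulin and 15.52 ± 0.0274 with LPS alone (SD, n = 3 each), and gave 0.12 ± 0.11 (SE, adjusted p = 0.568) for TsSP against LPS alone. Fen1, the nuclease that trims Okazaki fragments, gave 0.31 ± 0.12 (SE, adjusted p = 0.0977) and, for Inulin+TsSP against inulin, 0.31 ± 0.12 (SE, adjusted p = 0.0954), with no overlap of the compared arrays in either. Pole, the polymerase epsilon subunit, gave -0.27 ± 0.17 and 0.04 ± 0.17. Lig1, the ligase that seals fragments, was below background on at least 1 array of every group, between 6.01 and 6.68 on the log2 scale, and has no fold.

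**Figure D3:**
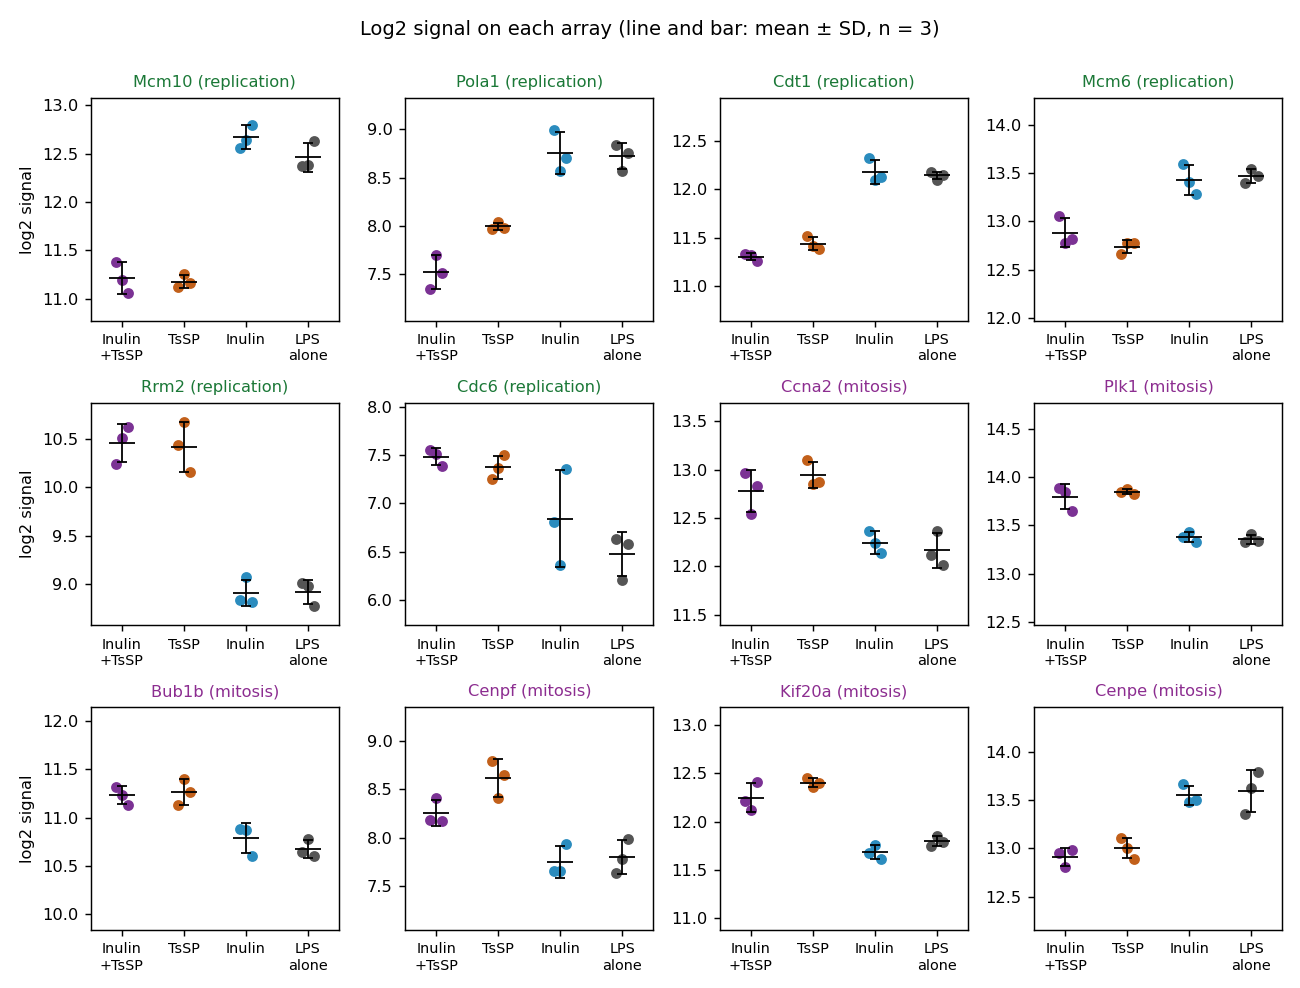
Log2 signal of 12 genes on each array (points, n = 3 a group) with the group mean (line) and SD (bar), for 6 replication genes and 6 mitosis genes. All panels span the same number of log2 units, each around its own centre. Mcm10, Pola1, Cdt1, Mcm6 and Cenpe are lower on the 6 arrays with TsSP, and Rrm2, Ccna2, Plk1, Bub1b, Cenpf and Kif20a are higher.

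Nucleotide supply held the largest rise of the set. Ribonucleotide reductase, which makes deoxyribonucleotides, joins a large subunit, Rrm1, to a small subunit, Rrm2, whose level is known to follow S phase. Rrm2 had log2 signals of 10.24, 10.51 and 10.63 with inulin and TsSP, 10.44, 10.67 and 10.15 with TsSP, 8.84, 9.07 and 8.82 with inulin, and 9.01, 8.98 and 8.77 with LPS alone. Every array with TsSP lay more than 1 log2 unit above every array without. Rrm2 rose by 2.83-fold (log2 difference 1.50 ± 0.16 SE, adjusted p = 5.00e-05) with TsSP against LPS alone and by 2.92-fold (log2 difference 1.55 ± 0.16 SE, adjusted p = 4.12e-05) with Inulin+TsSP against inulin. Rrm1 lay at 12.82, 12.73 and 12.93 (log2 signal) on the Inulin+TsSP arrays, 12.68, 12.83 and 13.03 on the TsSP arrays, 12.71, 12.50 and 12.28 on the inulin arrays and 12.42, 12.44 and 12.34 on the LPS arrays. TsSP arrays lay above LPS arrays, with a rise of 1.36-fold (log2 difference 0.45 ± 0.14 SE, adjusted p = 0.0446), while Inulin+TsSP against inulin gave 0.33 ± 0.14 (SE, adjusted p = 0.147). The Rrm1 call was lost in 9 of 12 fits with 1 array left out, at up to adjusted p = 0.165 without TsSP replicate 3, and under 5 of 8 other settings, among them all 3 other scalings of the arrays.

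Tk1, the thymidine kinase of the salvage route, gave log2 signals of 5.68, 5.94 and 6.85 with both agents, 5.89, 6.22 and 5.94 with TsSP, 5.52, 5.82 and 5.38 with inulin and 4.93, 4.99 and 5.48 with LPS alone. It was above background on 2 arrays, Inulin+TsSP replicate 3 and TsSP replicate 2, so no fold is given, although TsSP and Inulin+TsSP passed the test against LPS alone as higher (adjusted p = 0.0427 and 0.0213). With 1 array left out the first call was lost in 8 of 12 fits and the second in 3. Tyms, the thymidylate synthase, gave -0.05 ± 0.13 for TsSP against LPS alone and -0.36 ± 0.13 (SE, adjusted p = 0.0831) for Inulin+TsSP against inulin, and did not pass.

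The G1/S regulators were not called in any comparison by limma. For TsSP against LPS alone, 2 of 3 had an unadjusted p under 0.05, beside 5591 of all 19505 genes and 4001 of the 8289 above background. Ccne1, a cyclin E that drives entry into S phase with Cdk2, gave 0.69 ± 0.28 (SE, adjusted p = 0.127) and, for Inulin+TsSP against inulin, 0.63 ± 0.28 (SE, adjusted p = 0.171). Ccne2, the other cyclin E, was the most spread of the set, with LPS arrays at 7.72, 6.59 and 5.72 and inulin arrays at 8.06, 6.85 and 6.95, and gave 0.60 ± 0.45 (SE, adjusted p = 0.449). E2f1, the best known activator of the earlier wave, gave 0.66 ± 0.26 (SE, adjusted p = 0.115) for TsSP against LPS alone and -0.10 ± 0.26 (SE, adjusted p = 0.868) for Inulin+TsSP against inulin.

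Of the mitotic cyclins, Ccna2 acts in S phase and G2 and Ccnb2 at entry into mitosis. Ccna2 had log2 signals of 12.96, 12.54 and 12.83 with inulin and TsSP, 13.10, 12.85 and 12.88 with TsSP, 12.37, 12.24 and 12.14 with inulin, and 12.12, 12.37 and 12.02 with LPS alone. The arrays with TsSP lay above those without, with the closest approach between Inulin+TsSP replicate 2 and the upper LPS and inulin arrays. Ccna2 rose by 1.71-fold (log2 difference 0.77 ± 0.15 SE, adjusted p = 0.00311) with TsSP against LPS alone and by 1.45-fold (log2 difference 0.53 ± 0.15 SE, adjusted p = 0.0280) with Inulin+TsSP against inulin. The second call was lost in 4 of 12 fits with 1 array left out, at up to adjusted p = 0.107. Ccnb2 lay at 12.70, 12.26 and 12.48 (log2 signal) on the Inulin+TsSP arrays, 12.11, 12.25 and 12.39 on the TsSP arrays, 12.27, 12.43 and 12.01 on the inulin arrays and 11.72, 12.01 and 12.04 on the LPS arrays. Inulin+TsSP arrays lay above LPS arrays, with a rise of 1.47-fold (log2 difference 0.55 ± 0.16 SE, adjusted p = 0.0336), which 4 of 12 fits with 1 array left out lost, at up to adjusted p = 0.124 without Inulin+TsSP replicate 1. TsSP against LPS alone gave 0.33 ± 0.16 (SE, adjusted p = 0.212). Cdk1, the kinase that both cyclins activate, gave -0.03 ± 0.12 for TsSP against LPS alone and 0.21 ± 0.12 for Inulin+TsSP against inulin, and did not pass.

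The group of kinases with their partners (Plk1, Aurka, Aurkb, Birc5 and Cdc20) had positive differences in all 5 genes, of which 3 passed for TsSP against LPS alone. In that comparison 4897 of the 8289 genes above background had positive differences. Of those above background 20.9% passed as higher, and of all genes 11.0%. Plk1, the polo-like kinase of mitotic entry, gave log2 signals of 13.89, 13.85 and 13.65 with both agents, 13.85, 13.87 and 13.83 with TsSP, 13.39, 13.43 and 13.33 with inulin and 13.33, 13.41 and 13.34 with LPS alone. The TsSP arrays were tightly grouped above the LPS arrays. Plk1 rose by 1.40-fold (log2 difference 0.49 ± 0.11 SE, adjusted p = 0.00696) with TsSP and by 1.33-fold (log2 difference 0.41 ± 0.11 SE, adjusted p = 0.0187) with Inulin+TsSP against inulin, a call lost in 4 of 12 fits with 1 array left out. Aurkb and Birc5 encode the kinase and the survivin subunit of the chromosomal passenger complex, which corrects the attachment of chromosomes. Aurkb had log2 signals of 11.95, 11.93 and 12.06 with inulin and TsSP, 11.85, 11.93 and 12.09 with TsSP, 11.53, 11.54 and 11.39 with inulin, and 11.40, 11.68 and 11.31 with LPS alone. Those with TsSP lay above those without, and the rise was 1.41-fold (log2 difference 0.49 ± 0.13 SE, adjusted p = 0.0198) for TsSP against LPS alone and 1.41-fold (log2 difference 0.49 ± 0.13 SE, adjusted p = 0.0214) for Inulin+TsSP against inulin. The first was lost in 4 of 12 fits, at up to adjusted p = 0.0822 without TsSP replicate 3, and the second in 2. Birc5 lay at 9.69, 10.03 and 10.12 (log2 signal) on the Inulin+TsSP arrays, 9.85, 10.13 and 10.08 on the TsSP arrays, 8.99, 9.65 and 9.59 on the inulin arrays and 9.15, 9.39 and 8.85 on the LPS arrays. TsSP arrays all lay above LPS arrays, and inulin replicates 2 and 3 came close to Inulin+TsSP replicate 1. Birc5 rose by 1.85-fold (log2 difference 0.89 ± 0.20 SE, adjusted p = 0.00989) with TsSP, and Inulin+TsSP against inulin gave 0.54 ± 0.20 (SE, adjusted p = 0.107). Aurka, the kinase of the spindle poles, gave 0.24 ± 0.11 (SE, adjusted p = 0.164), and Cdc20, which activates the anaphase-promoting complex, gave 0.38 ± 0.14 (SE, adjusted p = 0.0885), and neither passed.

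Kinetochore and spindle checkpoint genes did not move as 1 group. Bub1b, the BubR1 checkpoint protein, gave log2 signals of 11.32, 11.24 and 11.13 with both agents, 11.13, 11.39 and 11.27 with TsSP, 10.88, 10.87 and 10.61 with inulin and 10.64, 10.78 and 10.61 with LPS alone. The lowest array with TsSP stood above the highest without. Bub1b rose by 1.50-fold (log2 difference 0.59 ± 0.13 SE, adjusted p = 0.00640) with TsSP against LPS alone and by 1.36-fold (log2 difference 0.44 ± 0.13 SE, adjusted p = 0.0320) with Inulin+TsSP against inulin, the second lost in 4 of 12 fits. Cenpf, a large protein of the outer kinetochore, had log2 signals of 8.18, 8.41 and 8.17 with inulin and TsSP, 8.79, 8.41 and 8.65 with TsSP, 7.66, 7.65 and 7.93 with inulin, and 7.64, 7.78 and 7.98 with LPS alone. All 6 arrays with TsSP lay above all 6 without, and TsSP replicates 1 and 3 were the highest. Cenpf rose by 1.76-fold (log2 difference 0.82 ± 0.15 SE, adjusted p = 0.00221) with TsSP against LPS alone and by 1.42-fold (log2 difference 0.51 ± 0.15 SE, adjusted p = 0.0357) with Inulin+TsSP against inulin, where 6 of 12 fits lost the call, at up to adjusted p = 0.120 without Inulin+TsSP replicate 2. Against TsSP, Inulin+TsSP gave -0.36 ± 0.15 (SE, adjusted p = 0.978).

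Cenpe, the kinesin that carries chromosomes to the spindle equator, was the mitosis gene that fell in all 3 comparisons of a TsSP group with its own control or with LPS alone. It lay at 12.95, 12.81 and 12.98 (log2 signal) on the Inulin+TsSP arrays, 13.11, 13.00 and 12.90 on the TsSP arrays, 13.66, 13.48 and 13.50 on the inulin arrays and 13.36, 13.62 and 13.79 on the LPS arrays. All 6 arrays with TsSP lay below all 6 without. Cenpe fell by 1.50-fold (log2 difference -0.59 ± 0.13 SE, adjusted p = 0.00919) with TsSP against LPS alone and by 1.55-fold (log2 difference -0.64 ± 0.13 SE, adjusted p = 0.00608) with Inulin+TsSP against inulin, and no left-out array or other setting ended either call. Bub1, the checkpoint kinase, gave 0.19 ± 0.14 and 0.13 ± 0.14 and did not pass.

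Among the motors, Kif20a, the kinesin of the central spindle, gave log2 signals of 12.22, 12.11 and 12.41 with both agents, 12.45, 12.36 and 12.40 with TsSP, 11.67, 11.76 and 11.61 with inulin and 11.74, 11.85 and 11.79 with LPS alone. The arrays with TsSP lay above those without. Kif20a rose by 1.52-fold (log2 difference 0.61 ± 0.11 SE, adjusted p = 0.00269) with TsSP against LPS alone and by 1.48-fold (log2 difference 0.57 ± 0.11 SE, adjusted p = 0.00439) with Inulin+TsSP against inulin. Kif11, the motor that separates the spindle poles, gave -0.07 ± 0.14 and -0.25 ± 0.14 and did not pass. Top2a, the topoisomerase that untangles sister chromosomes, had log2 signals of 11.06, 10.71 and 10.63 with inulin and TsSP, 10.91, 11.20 and 10.96 with TsSP, 11.15, 11.45 and 11.50 with inulin, and 10.98, 11.04 and 11.29 with LPS alone. The Inulin+TsSP arrays lay below the inulin arrays, and the TsSP arrays overlapped the LPS arrays. Top2a fell by 1.48-fold (log2 difference -0.57 ± 0.16 SE, adjusted p = 0.0293) with Inulin+TsSP against inulin, a call lost in 4 of 12 fits at up to adjusted p = 0.112 without Inulin+TsSP replicate 3, and TsSP against LPS alone gave -0.08 ± 0.16 (SE, adjusted p = 0.806). Mki67, the Ki-67 antigen used to mark cycling cells, lay at a mean log2 signal of 14.52 ± 0.179 with inulin and TsSP, 14.70 ± 0.108 with TsSP, 14.25 ± 0.126 with inulin and 14.39 ± 0.271 with LPS alone (SD, n = 3 each) and gave 0.31 ± 0.16 (SE, adjusted p = 0.229) for TsSP against LPS alone, which did not pass.

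The phase of a gene can also be followed array by array, as the median over the genes of each gene's deviation from its own mean over the 12 arrays. For the 16 mitosis genes this median lay at 0.07 to 0.20 on the Inulin+TsSP arrays, 0.12 to 0.22 on the TsSP arrays, -0.21 to -0.04 on the inulin arrays and -0.24 to -0.16 on the LPS arrays. The 6 arrays with TsSP were all above the 6 without. For the 24 replication genes it lay at -0.07 to 0.01, 0.00 to 0.02, -0.11 to 0.15 and -0.10 to 0.08 in the same order, so the groups overlapped. The 8289 genes above background lay at 0.02 to 0.03, 0.04 to 0.05, -0.02 to 0.01 and -0.11 to -0.02, with the lowest value on LPS replicate 1. Mitosis minus replication, within an array, was 0.07 to 0.24 with inulin and TsSP, 0.12 to 0.22 with TsSP, -0.28 to -0.10 with inulin and -0.32 to -0.10 with LPS alone. The sign of this within-array difference thus separated the arrays with TsSP from those without. These medians use the same values as the calls above, for genes chosen with earlier results known. They describe the same pattern and are not a further test of it. Because each gene is centred on its mean over the 12 arrays, higher values on 6 arrays also set lower ones on the others.

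**Figure D4:**
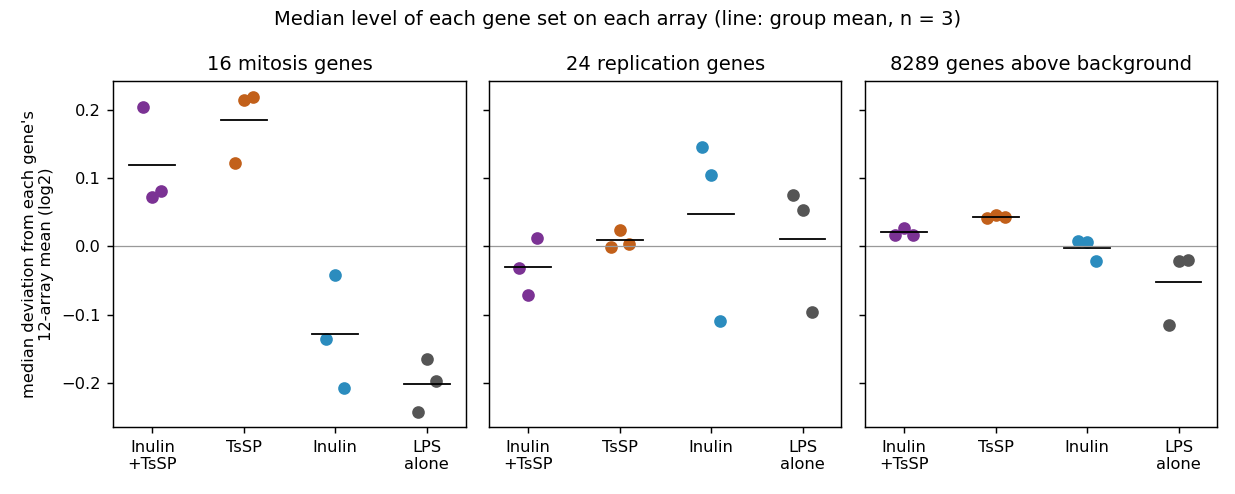
Median deviation of each gene set from its 12-array mean (log2) on each array (points, n = 3 a group, line at the group mean), for mitosis genes, replication genes and all genes above background. Mitosis genes lie above 0 on all 6 arrays with TsSP and below 0 on all 6 without, while replication genes overlap.

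The TsSP difference was measured in 2 pairs of groups that share no array. Over the 40 genes, the difference of TsSP from LPS alone and that of Inulin+TsSP from inulin correlated at Pearson r = 0.903 and Spearman rho = 0.864, a description across genes that are not independent of each other. The sign was the same for 34 genes and opposite for 6, namely Orc1, Mcm4, Pole, E2f1, Ccne2 and Cdk1, none of which passed in either comparison. The correlation and the overlap of calls were not worked out over all 19505 genes, so neither is shown to be particular to this set. Of all genes, 3525 were called without inulin and 3248 with it. Both comparisons take the spread of each gene from all 12 arrays, so their calls are not fully separate. Of the 16 genes called without inulin, 12 (75.0%) were also called with it, and these were 85.7% of the 14 called with it. The 12 were 7 risers, Rrm2, Ccna2, Plk1, Aurkb, Bub1b, Cenpf and Kif20a, and 5 that fell, Cdt1, Mcm6, Mcm10, Pola1 and Cenpe. Cdc6, Rrm1, Tk1 and Birc5 were called only without inulin, and Gins1 and Top2a only with it, but the interaction passed for none of them. Their interaction adjusted p ran from 0.900 to 0.991.

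**Figure D5:**
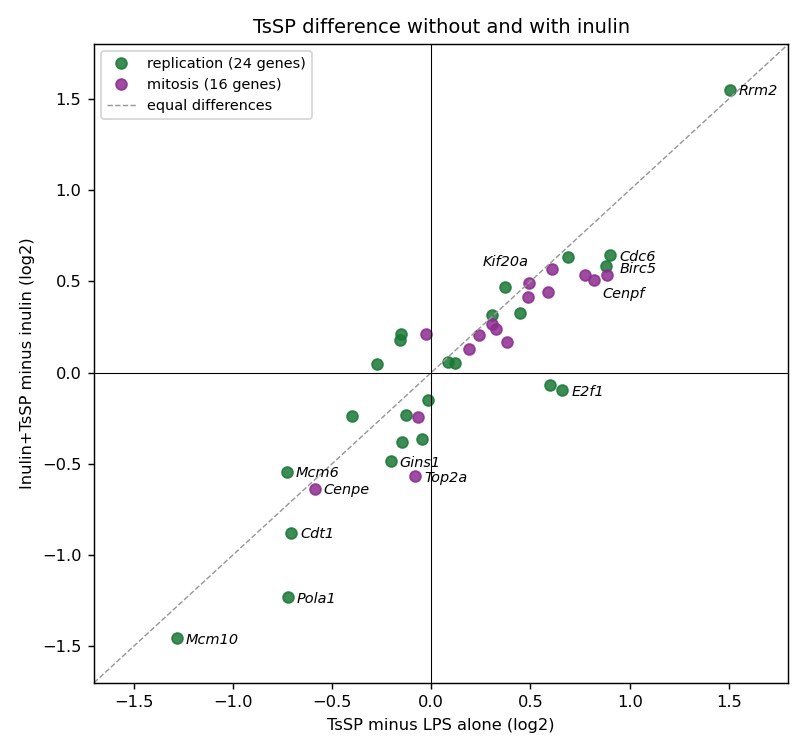
Log2 difference of Inulin+TsSP minus inulin (y) against TsSP minus LPS alone (x) for 24 replication and 16 mitosis genes, with a dashed line of equal differences. Points follow the line from Mcm10 to Rrm2, with Pearson r = 0.903, and E2f1 lies below it at 0.66 and -0.10.

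Of the 40 genes, 0 passed for inulin against LPS alone (limma), where 0% of all 19505 genes passed. At an unadjusted p under 0.05 there was 1 of 40, Mcm4, at -0.36 ± 0.12 (SE, adjusted p = 0.710), beside 1143 of all 19505 genes. The differences of the 40 genes ran from -0.40 to 0.61, with a median of 0.04 for mitosis genes and 0.04 for replication genes. Mcm10 stood at 0.21 ± 0.13, Cdt1 at 0.04 ± 0.11, Rrm2 at -0.01 ± 0.16 and Plk1 at 0.02 ± 0.11, beside differences of -1.28, -0.70, 1.50 and 0.49 for TsSP. Inulin added to TsSP also called 0 genes of the set and 0% of all genes. There, 4 of 40 were below an unadjusted p of 0.05 (Gins1, Pola1, Cdk1 and Cenpf), beside 971 of all 19505 genes. The interaction of inulin and TsSP called 0 and 0%, with 1 of 40 below that p, Pola1, beside 1089 of all 19505 genes. The standard errors of an inulin difference were 0.11 to 0.45, and since Mcm4 did not pass at about 3 times its standard error, differences of that size were not detectable here.

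Genes of the same processes outside the set were counted from 4 lists. Of 42 other replication factors measured, 3 rose and 3 fell with TsSP against LPS alone, where 11.0% of all genes rose and 7.08% fell (20.9% and 13.4% of those above background). The share of risers lay below both backgrounds, and that of falls near the one over all genes. Uhrf1, which keeps DNA methylation after replication, rose by 1.64-fold (log2 SE 0.11, adjusted p = 0.000644), and Clspn and Gmnn, the checkpoint mediator claspin and the Cdt1 inhibitor geminin, rose at least 1.26-fold (adjusted p = 0.00480) and at least 1.92-fold (adjusted p = 0.00856). Timeless, of the fork protection complex, fell by 2.46-fold (log2 SE 0.11, adjusted p = 1.25e-05), Rfc3, a subunit of the clamp loader, by 2.03-fold (log2 SE 0.16, adjusted p = 0.000820), and Mcm9 by 1.68-fold (log2 SE 0.20, adjusted p = 0.0239). With Inulin+TsSP against inulin 2 rose and 4 fell, beside 8.66% and 7.99% of all genes. The median difference of this list was 0.14 with TsSP and 0.04 with Inulin+TsSP against inulin.

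Of 58 other mitotic genes, 12 rose and 1 fell with TsSP against LPS alone, with a median difference of 0.24. Cenpa, the centromeric histone, rose by 2.10-fold (log2 SE 0.13, adjusted p = 0.000110), Nek2, a centrosome kinase, by 1.73-fold (log2 SE 0.12, adjusted p = 0.000927), Incenp, of the chromosomal passenger complex, by 1.71-fold (log2 SE 0.11, adjusted p = 0.000491), and Cdca3 by 1.50-fold (log2 SE 0.11, adjusted p = 0.00271). Smc2, a condensin subunit, fell by 1.38-fold (log2 SE 0.14, adjusted p = 0.0374). The share of risers, 12 of 58, lay near the 20.9% of all genes above background, and that of falls, 1 of 58, lay below the 13.4% there. With Inulin+TsSP against inulin 8 rose and 2 fell, beside 16.5% and 15.6% of genes above background.

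Among 39 G1 regulators, CDK inhibitors and members of the RB and E2F families, 13 rose and 4 fell with TsSP against LPS alone, beside 20.9% and 13.4% of genes above background and 11.0% and 7.08% of all genes. Ccnd3, a D-type cyclin, averaged 14.74 ± 0.0257 with TsSP and 12.94 ± 0.181 with LPS alone (log2 signal, SD) and rose by 3.49-fold (log2 SE 0.12, adjusted p = 1.67e-06). E2f2, an activator E2F, rose at least 3.70-fold (adjusted p = 5.40e-06), and Cdk2, the partner of cyclins E and A, rose by 2.16-fold (log2 SE 0.15, adjusted p = 0.000290). Cdk6, the partner of D cyclins, averaged 12.97 ± 0.0499 with TsSP and 14.37 ± 0.145 with LPS alone (log2 signal, SD) and fell by 2.63-fold (log2 SE 0.13, adjusted p = 1.81e-05). Ccnd2, another D-type cyclin, fell by 2.15-fold (log2 SE 0.16, adjusted p = 0.000584), Rbl1, a relative of RB, by 1.59-fold (log2 SE 0.11, adjusted p = 0.00111), and Lin9, a subunit of MuvB, by 1.52-fold (log2 SE 0.12, adjusted p = 0.00328). With Inulin+TsSP against inulin 10 rose and 5 fell, beside 8.66% and 7.99% of all genes and 16.5% and 15.6% of those above background. The 7 named genes were among them with the same signs. Of 19 checkpoint and repair genes, 2 rose, Msh6 by 2.24-fold (log2 SE 0.26, adjusted p = 0.00886) and Brca1 by 2.18-fold (log2 SE 0.26, adjusted p = 0.00937), and 4 fell, Atm by 1.74-fold (log2 SE 0.14, adjusted p = 0.00171), Chek1 by 1.58-fold (log2 SE 0.14, adjusted p = 0.00642), Rad51ap1 by 1.75-fold (log2 SE 0.25, adjusted p = 0.0415), and Ung below background, where 11.0% of all genes rose and 7.08% fell (20.9% and 13.4% of those above background). With Inulin+TsSP against inulin Msh6 rose and Atm fell, and the 17 others did not pass.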

How the data were processed

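Per the labels' protocols, total RNA of the cells was purified on RNeasy columns, and the array material carried a biotin label. The deposited table gives log2 values, 1 per probe set and array. The base is inferred from their range of 1.32 to 18.94, and the authors' software, background correction and normalization were not given in the sources used here. Values were used as deposited. Of 28846 probe sets, 19572 have 1 gene symbol, and the one with the highest mean stood for a gene, which left 19505 genes.

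Comparisons were contrasts in 1 limma model with a mean for each group (lmFit and eBayes, limma 3.58.1, R 4.3.3), over all 12 arrays, with 8 residual and 3.35 prior degrees of freedom. P-values are two-sided, adjusted by Benjamini and Hochberg over all 19505 genes, with a threshold of 0.05, and the procedure was tested on simulated data. Figures used matplotlib 3.10.9 in Python 3.11.15. With 3 arrays a group, their number limits the precision. The 8 alternative settings, and fits that left out 1 array in turn, are described in the closing section. Members and lists were chosen with earlier results of these data known. Values for each array were given for every member called in any comparison, and in each other list the up to 4 genes with the smallest p for TsSP against LPS alone were named, and all genes where a count was 5 or fewer. Replicate numbers were checked for pairing and were not used in the model. Promoter windows came from RefSeq.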

Additional observations from a re-analysis of the deposited data

Results flagged for a closer look

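E2f1, an activator of the earlier wave, was looked at because its TsSP difference had opposite signs without and with inulin. It was 1 of 6 genes of the set with opposite signs, and its interaction was the largest in size of the 40. Its log2 signals were 7.00, 7.03 and 6.95 with inulin and TsSP, 7.02, 7.26 and 7.71 with TsSP, 7.18, 7.43 and 6.67 with inulin, and 7.11, 6.16 and 6.75 with LPS alone. LPS replicate 2 was below background. The interaction was -0.76 ± 0.37 (SE, unadjusted p = 0.0644, adjusted p = 0.907), so the difference between the 2 comparisons did not pass the test.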

How the results depend on the processing

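Every one of 46 member calls kept its direction with each of 12 arrays left out and under 8 other settings, except that the 2 calls of Tk1 were not tested with dim genes left out, and 27 also stayed past the threshold throughout: 12 of 16 for TsSP against LPS alone, 7 of 14 for Inulin+TsSP against inulin and 8 of 16 for Inulin+TsSP against LPS alone. Calls lost were 15 with only the arrays of the compared groups, 4 with quantile normalization, 4 with the replicate block, 2 and 1 with centring on genes above background and on all genes, 1 with a mean-variance trend, 0 with probe sets averaged, and 0 of the 44 calls still tested with dim genes left out. The 7 rises of Inulin+TsSP against inulin became 3 with only the compared arrays, where fewer arrays estimate the spread, 11 with genes above background in at least 1 group, where fewer genes are tested, and 3 to 7 with 1 array left out. The 10 rises of Inulin+TsSP against LPS alone became 4 with only the compared arrays and 5 to 11 with 1 left out, the 5 without Inulin+TsSP replicate 3. For TsSP against LPS alone the rises were 8 to 11 and the falls 5 to 6 with 1 array left out. Same-numbered arrays of different groups correlated at r = -0.10 to 0.12 in their deviations from the group means, with 1 of 18 pairs over 0.1. Differently numbered arrays lay at r = -0.14 to 0.13, with 1 of 36 pairs over 0.1. With 3 arrays a group, the check cannot tell whether same-numbered arrays were handled together. With the replicate block, TsSP against LPS alone gave 10 rises and 5 falls. Quantile normalization took the median difference of genes above background for TsSP against LPS alone to 0.015, against 0.099 as deposited. With 3 arrays a group, small differences were not detectable, and genes near background, such as Tk1 and Lig1, have no fold.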
